A study of Homo sapiens with 6 samples.

Results

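ENSG00000268205, ENSG00000288899 and ENSG00000289194 are 3 long non-coding RNA (lncRNA) genes of a single exon and a single annotated transcript each, which lie downstream of the protein-coding genes ZNF460 and INCENP on the same strand. They were examined with these 2 coding genes because the lncRNAs had been chosen by their IP reads over input reads in these same samples, so that their enrichment is described here and carries no test. The 5 members, of 64485 annotated genes, were followed through the bins of 20 bases whose centre fell in their exons or in the stretches between them. Such bins numbered 954 of 816781 listed bins in SK-Mel-103 replicate 1, 976 of 780750 in UACC-62 replicate 1 and 994 of 862731 in UACC-62 replicate 3. The question was whether the reads of each lncRNA stand apart from those of the coding gene before it or run on from its 3′ untranslated region (UTR).

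SK-Mel-103 and UACC-62 are established human melanoma cell lines. Cells of both lines were fixed with formaldehyde, endogenous CELF1 was precipitated with an antibody against CUGBP1 (another name of CELF1), and the RNA recovered (IP) was sequenced beside RNA of the lysates (input). SK-Mel-103 contributed 1 IP sample and UACC-62 contributed 2, replicates 1 and 3, each with an input that was read here from the same list. SK-Mel-103 therefore had no replicates, nothing stated whether the UACC-62 replicates were separate cultures, and no test between the lines was possible.

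CELF1 is an RNA-binding protein that recognizes GU-rich elements, mostly in 3′ UTRs, and is known for its part in mRNA decay, translation and splicing. ZNF460 belongs to the Krüppel-type zinc finger proteins, many of which are encoded in clusters on chromosome 19. INCENP is the scaffold of the chromosomal passenger complex, which places the kinase Aurora B on centromeres and the central spindle during cell division. A gene can end its transcript at more than one poly(A) site, and a site farther downstream gives the mRNA a longer 3′ UTR. Where the annotation stops at the nearer site, the remainder of such a UTR may be recorded as a separate, unspliced lncRNA.

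All coordinates are of GRCh37, and all 5 genes lie on the plus strand. ZNF460 was annotated at chr19:57791419-57805437, ENSG00000288899 at chr19:57808879-57809759 and ENSG00000268205 at chr19:57815673-57819930. The gap between ZNF460 and ENSG00000288899 measured 3441 bases, that between both lncRNAs 5913 bases, and the next coding gene, the zinc finger gene ZNF543, began 11909 bases past ENSG00000268205. INCENP was annotated at chr11:61891470-61920641 and ENSG00000289194 at chr11:61921202-61922255, 560 bases on, while the next coding gene, SCGB1D1, began 35432 bases farther. Hence none of the lncRNAs had another coding gene between itself and its upstream neighbor.

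The hexamers AAUAAA and AUUAAA, which direct cleavage and polyadenylation shortly downstream, were searched on the transcript strand in the 40 bases before each annotated 3′ end. AAUAAA stood 25 bases before the farthest annotated end of ZNF460, 27 bases before that of INCENP and 24 bases before the end of ENSG00000268205, counted from the last base of the hexamer. No hexamer was found in this window before the ends of ENSG00000288899 or ENSG00000289194, nor before the shorter annotated ends of ZNF460 at 57803902 and INCENP at 61920224. One of the hexamers was present in 58.8% of 67663 protein-coding transcript ends and in 47.2% of 55764 lncRNA transcript ends of the annotation. Within the INCENP stretch, an AAUAAA lay beyond the annotated end of ENSG00000289194 and past the last bin with more than 30 IP reads, by 25 bases in SK-Mel-103 and UACC-62 replicate 3 and by more than the 40 bases searched in UACC-62 replicate 1, where that bin ended at 61922880. The stretch from the 3′ UTR of ZNF460 to the end of ENSG00000268205 held 17 such hexamers, 11 of them in this lncRNA. That of INCENP held 8, up to the AAUAAA past ENSG00000289194. Reads continued past AAUAAA at 57817532, 57818183 and 57818224. Of consecutive windows of 40 bases, 5.62% held one over the longest 3′ UTRs of all coding genes. Past ZNF460 and INCENP, to the end of the lncRNAs, 14 of 362 and 3 of 40 did. Hexamers at read ends were not tested against this. The windows below show the first 4 hexamers above in capitals, written as DNA, since the ends of the read stretches described further on are compared with them.
End of ZNF460, chr19:57805395-57805424: gaatagtgcttcAATAAAcataggagtgta
End of ENSG00000268205, chr19:57819889-57819918: cataagcaacatAATAAAttatatatctgg
End of INCENP, chr11:61920597-61920626: gcttaaggacaaAATAAAgcctaaatccaa
Past ENSG00000289194, chr11:61922914-61922943: tccaacaagttaAATAAAaaggattacact

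UGUUUG and UGUGUG, the hexamers from which CELF1-type GU-rich elements are built, were counted on the same strand. ENSG00000268205 held 5 UGUUUG and 1 UGUGUG, whereas ENSG00000288899 and ENSG00000289194 held 1 UGUUUG each and no UGUGUG. Their UGUUUG density was 1.17, 1.14 and 0.949 per kb, against 0.576 per kb over the longest 3′ UTRs of 19306 protein-coding genes and 0.406 per kb over the longest transcripts of 18660 lncRNA genes. A density of 1 per kb in ENSG00000288899 or ENSG00000289194 rests on a single hexamer. Both hexamers together reached 1.41 per kb in ENSG00000268205, 1.14 in ENSG00000288899 and 0.949 in ENSG00000289194, and 1.43 per kb over the 3′ UTRs of all coding genes, so that no lncRNA exceeded this mean. The windows below show, in capitals, these hexamers in each lncRNA and in the gap before ENSG00000288899, chosen for the reads of the bin that holds the hexamer.
Gap before ENSG00000288899, chr19:57808073-57808102: ttttcttttgcaTGTGTGTGtccttatctg
Gap before ENSG00000288899, chr19:57808459-57808488: catttttgtatgTGTTTGattttgagtctt
ENSG00000288899, chr19:57809650-57809679: tcatccctactgTGTTTGatacaaagtctc
ENSG00000268205, chr19:57816596-57816625: caagtcccaaccTGTTTGtggtttgaggtt
ENSG00000289194, chr11:61921576-61921605: gtttatgtttttTGTTTGtgtttaggagca

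Values are given for SK-Mel-103, UACC-62 replicate 1 and UACC-62 replicate 3, in this order, unless stated otherwise. The bin with the UGUGUG repeat of the gap held 405, 997 and 913 IP reads beside 29, 31 and 27 input reads, and the bin with the UGUUUG at 57808471 held 217, 573 and 455 IP reads beside 4, 2 and 2 input reads. The UGUUUG of ENSG00000288899 lay in a bin of 154, 349 and 322 IP reads, that of ENSG00000289194 in a bin of 54, 38 and 32, and the one shown for ENSG00000268205 in a bin of 38, 89 and 130. By contrast, another UGUUUG of ENSG00000268205, at 57815800, lay in a bin that was listed in none of the samples. A tandem UGUUUG repeat in the gap between both lncRNAs, chr19:57812294-57812311, is not among the windows shown and had few IP reads. Its first bin was not listed in SK-Mel-103 and held 6 and 5 IP reads in UACC-62, and its next bin held 16, 31 and 24. Bins that held at least 1 of these hexamers whole were then counted, so that hexamers across the edge of a bin were left out. From the stop codon of ZNF460 to the end of ENSG00000268205, these were 8 of 207 bins with more than 100 IP reads in all samples (3.86%, Wilson 95% interval 1.97 to 7.44), against 10 of 609 other positions (1.64%, 0.894 to 2.996). In the INCENP stretch these were 0 of 29 (up to 11.7% by the same interval) and 3 of 112. The intervals overlapped at both loci. None of the bins with the most IP reads in each lncRNA, gap or UTR contained either hexamer.

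Over the whole of each list, 10958459 to 14436573 IP reads and 8453517 to 10161917 input reads fell into listed bins, and 9.69% to 29.2% of the bins had no input read. A bin was listed only if its IP reads had passed the threshold of the peak caller, so that input reads outside listed bins are unknown and each value below is conditional on the bin having passed. The log2 IP over input of a region is its summed IP reads over its summed input reads, each divided by the total of its list, with 1 read added to both. Intervals given for reads cover counting error only.

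The 3 lncRNAs were strongly enriched in all samples. ENSG00000268205 had 10706, 15653 and 22875 IP reads beside 1114, 1351 and 1204 input reads. Its log2 IP over input came to 2.89 in SK-Mel-103, and 3.38 and 3.55 in UACC-62 (3.46 ± 0.12, SD, n = 2). ENSG00000288899 had 4048, 9565 and 7326 IP reads beside 259, 325 and 287 input reads. Its log2 values were 3.59 in SK-Mel-103 and 4.72 and 3.97 in UACC-62 (4.34 ± 0.53, SD, n = 2), the latter being the highest of the 3 lncRNAs in this line. ENSG00000289194 had 4299, 3622 and 3329 IP reads beside 266, 189 and 174 input reads. Its log2 values were 3.64, 4.10 and 3.55 (UACC-62: 3.82 ± 0.38, SD, n = 2), so that the SK-Mel-103 value lay between those of the UACC-62 replicates, whereas for the other two lncRNAs it lay below both.

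The coding genes were enriched to a lesser degree. Over all its exons, ZNF460 had 10779, 15365 and 23469 IP reads beside 2273, 2393 and 2188 input reads, and a log2 IP over input of 1.87, 2.52 and 2.72 (UACC-62: 2.62 ± 0.14, SD, n = 2). INCENP had 3605, 4282 and 4722 IP reads beside 869, 577 and 416 input reads, with log2 values of 1.68, 2.73 and 2.80 (UACC-62: 2.77 ± 0.05, SD, n = 2). In each sample the lncRNAs exceeded the coding gene before them.

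For comparison, 6713 genes with at least 10 listed exonic bins in every sample had a median log2 IP over input of -0.24, -0.67 and -0.43. A value above 2 in all samples was reached by 154 of them (2.29%), by 128 of 6494 coding genes (1.97%) and by 21 of 163 lncRNAs (12.9%). All 3 lncRNAs described here were among the latter, which is how they were chosen, and neither ZNF460 nor INCENP passed this cut because of SK-Mel-103. Ordered by the lowest value over the samples, ENSG00000288899 ranked 6th, ENSG00000289194 8th, ENSG00000268205 29th, ZNF460 193rd and INCENP 278th of 6713.

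The 3′ UTR of ZNF460 was more enriched than its coding exons. The coding exons had a log2 IP over input of 0.98, 1.61 and 2.31, and the 3′ UTR 2.38, 3.06 and 2.97. Its 5′ UTR and non-coding exons, with 12, 22 and 14 input reads only, had 2.28, 1.27 and 2.44, which was above the coding exons in SK-Mel-103 and UACC-62 replicate 3 and below them in UACC-62 replicate 1. The unannotated gap before ENSG00000288899 had 3.78, 4.95 and 4.24, which was slightly above ENSG00000288899 itself, and the gap between the lncRNAs had 3.26, 4.05 and 4.02, which was above ENSG00000268205. Both lncRNAs thus had lower values than the gap before them. INCENP had the same order from its coding exons onwards, with 0.20, 0.85 and 1.11 over its coding exons, 2.31, 3.35 and 3.41 over its 3′ UTR and 3.55, 4.04 and 3.69 over the gap, while its 5′ UTR and non-coding exons held 1, 1 and 2 listed bins. Between this gap and ENSG00000289194 the values differed by less than 0.2 in each sample, well within the spread between samples.

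**Figure D1:**
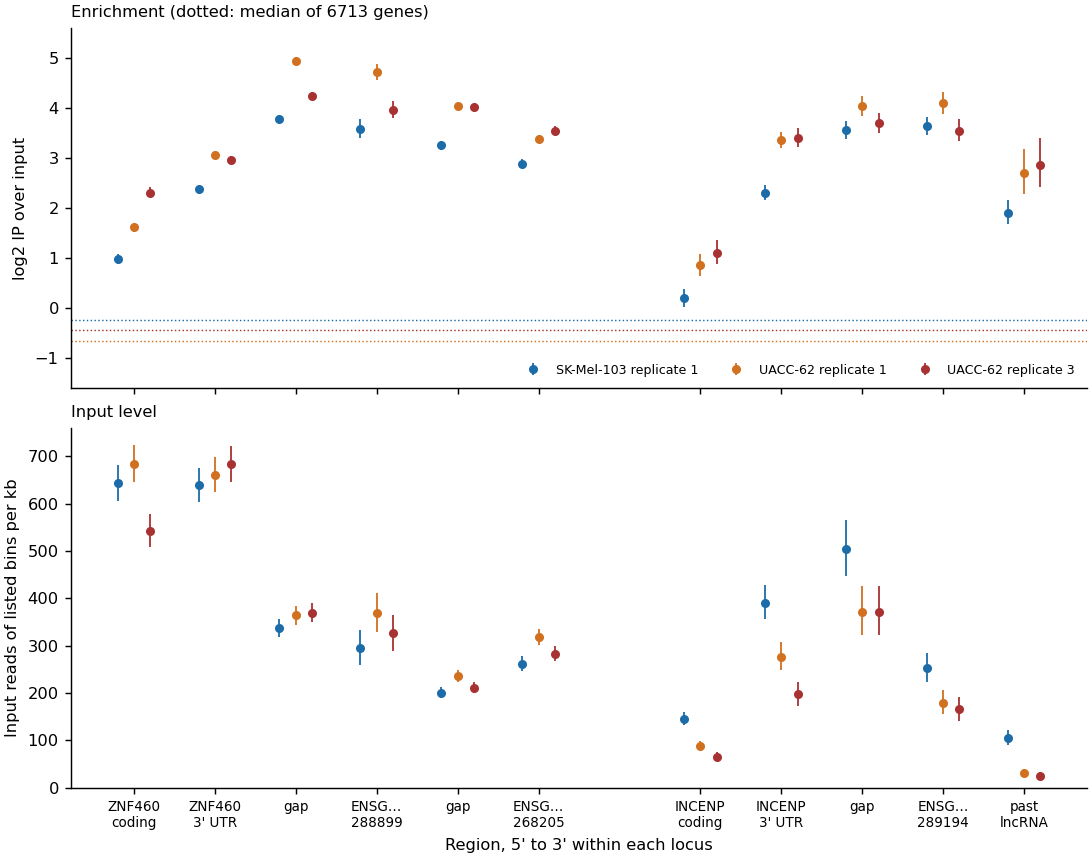
Log2 IP over input (top) and input reads of listed bins per kb (bottom) for the regions of both loci, ordered 5′ to 3′, with points for the 3 IP samples, bars for the 95% counting intervals and dotted lines for the median of 6713 genes. In every sample the coding exons lie lowest in enrichment at each locus, both gaps past ZNF460 lie above the lncRNA that follows, and the gap past INCENP differs from ENSG00000289194 by less than 0.2, while the input stays at or above 165 reads per kb in all gaps and lncRNAs.

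The bins covered the gaps nearly as densely as the annotated exons. From the end of ZNF460 to ENSG00000288899, 84.3%, 86.6% and 87.8% of 172 positions on the 20-base grid held a listed bin on the transcript strand. The share was 96.7%, 100% and 95.7% for the 3′ UTR of ZNF460, and 90.9%, 95.5% and 90.9% for ENSG00000288899. Between both lncRNAs it was 76.0%, 76.4% and 79.7% of 296 positions, and within ENSG00000268205 82.1%, 87.7% and 90.1% of 212. The gap between the lncRNAs was therefore the least covered, and 59 of its positions were empty in every sample, against 18 in ENSG00000268205.

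On the strand opposite to the transcripts, the regions from the coding exons of ZNF460 to the end of ENSG00000268205 held at most 2 listed bins each, with at most 13 IP reads. No such bin was listed in any of these regions for INCENP. Introns were nearly empty too. Of 501 positions in the introns of ZNF460, 4, 2 and 4 were listed, with 5, 2 and 3 input reads in all, and of 1234 positions in those of INCENP, 13, 3 and 3 were listed.

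Past ENSG00000268205 the reads stopped. Its last 500 bases had 3115, 3580 and 5629 IP reads, whereas the 500 bases beyond its annotated end had 0, 0 and 10 IP reads and no input read in any sample. Over 725 positions beyond the end, 1, 10 and 35 were listed, with 4, 60 and 196 IP reads. Counted from the last exon of ZNF460, listed bins continued with no empty stretch of 500 bases, the longest being 260, 220 and 340 bases. The stretch of 340 bases, in UACC-62 replicate 3, began at 57819941, past the end of ENSG00000268205. In this sample the run so counted ended at 57820300, 370 bases past ENSG00000268205. The last bin with more than 30 IP reads ended at 57819900 in all samples, 14463 bases past the annotated end of ZNF460 and 30 bases before that of ENSG00000268205. The AAUAAA shown above for ENSG00000268205 began at the next base, 57819901.

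**Figure D2:**
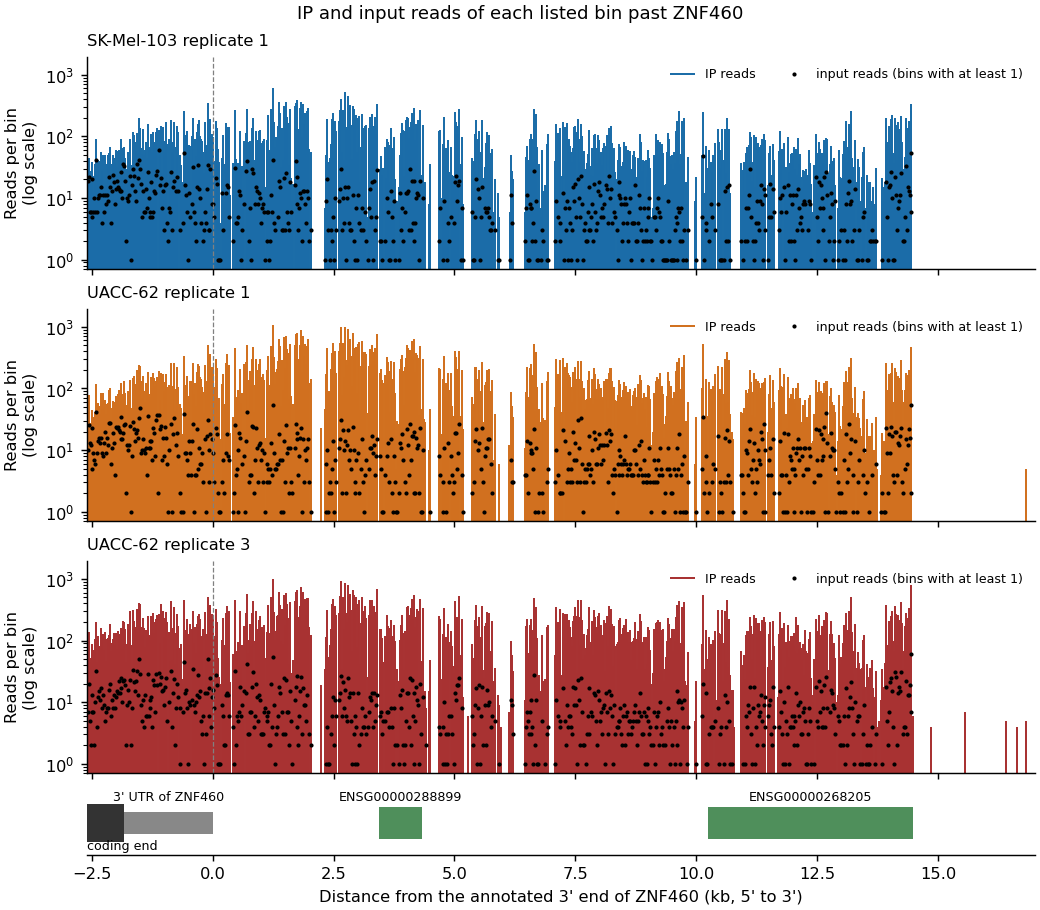
IP reads (vertical lines) and input reads (points) of each listed 20-base bin against the distance from the annotated 3′ end of ZNF460, on a log scale, 1 panel per IP sample, with the annotated 3′ UTR and lncRNAs drawn to scale below. Bins run from the coding end through both gaps and both lncRNAs and cease at the end of ENSG00000268205, 14463 bases on, with scattered single bins beyond it in UACC-62.

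At INCENP the run of bins was shorter and denser. Of 28 grid positions between INCENP and ENSG00000289194, 27 were listed in each sample (96.4%), compared with 88.3%, 91.7% and 90.0% in the 3′ UTR of INCENP and 90.6%, 88.7% and 88.7% in ENSG00000289194. From the last exon of INCENP to the end of this run, the longest empty stretch measured 100 bases in each sample. It began at 61919621, within the annotated 3′ UTR of INCENP. Unlike at ZNF460, the bins passed the annotated end of the lncRNA and ended at 61922920 in all samples, 665 bases beyond it. In this stretch past ENSG00000289194 (1614 bases), 33, 26 and 29 of 80 positions were listed, with 822, 353 and 472 IP reads, and the log2 IP over input was 1.91, 2.70 and 2.87, below that of the lncRNA in every sample. The AAUAAA shown above began 6 bases past the last listed bin, at 61922926.

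**Figure D3:**
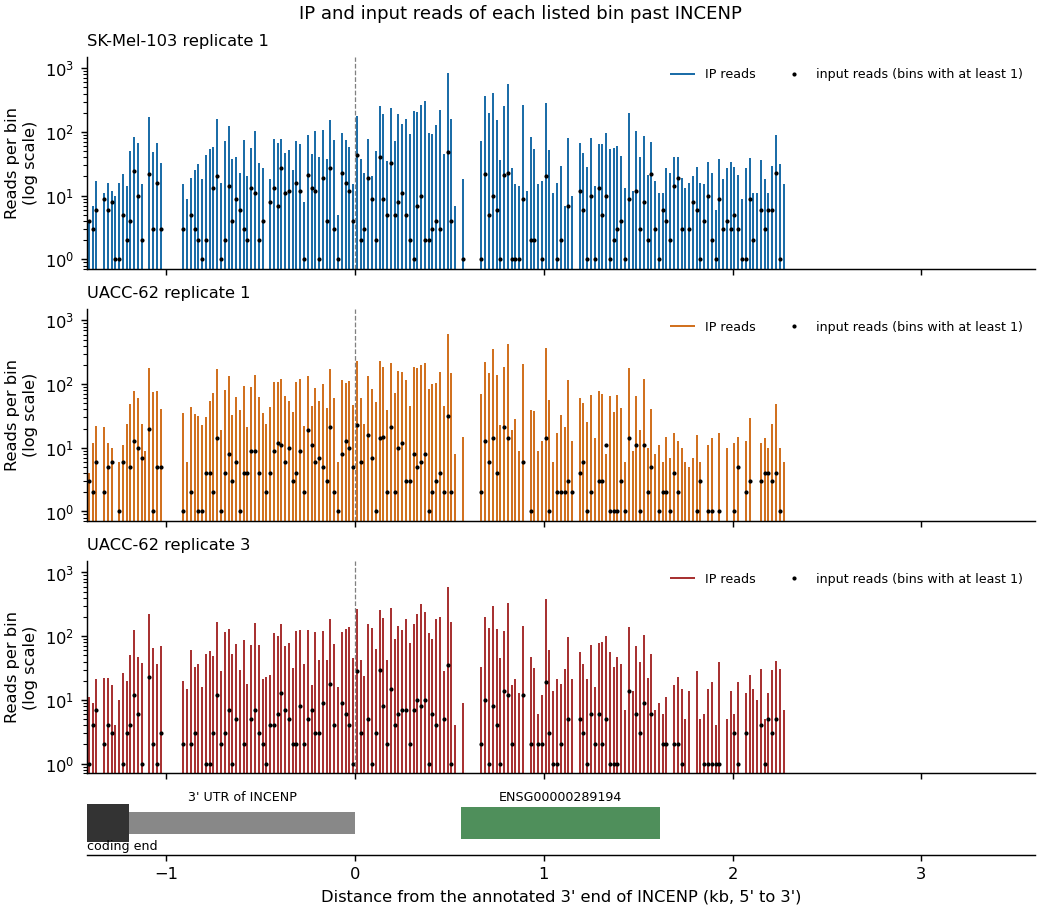
IP reads (vertical lines) and input reads (points) of each listed 20-base bin against the distance from the annotated 3′ end of INCENP, on a log scale, 1 panel per IP sample, with the annotated 3′ UTR and ENSG00000289194 drawn to scale below. The highest bins lie in the gap and the first part of the lncRNA, and bins continue for 665 bases past the end of ENSG00000289194 in all 3 samples.

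Input reads, which do not depend on the antibody except through the choice of bins, were compared per kb of region. ZNF460 had 643, 684 and 543 over its coding exons and 639, 661 and 683 over its 3′ UTR. They dropped to 337, 364 and 369 in the following gap, with 294, 369 and 326 in ENSG00000288899, 201, 235 and 211 in the next gap and 262, 317 and 283 in ENSG00000268205. Relative to the 3′ UTR, the input of ENSG00000288899 was 0.460, 0.558 and 0.477 and that of ENSG00000268205 0.409, 0.480 and 0.414. These ratios varied little among the samples, and neither gap nor lncRNA reached the level of the UTR.

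Input reads declined along the 3′ UTR of ZNF460 and past its annotated end. In consecutive windows of 500 bases they numbered 434, 423 and 408 around the stop codon, then 330, 389 and 347, and 269, 259 and 290 from 57804567. The window across the annotated end, from 57805067, had 242, 235 and 318, an increase in UACC-62 replicate 3 alone. Past this end, the window from 57805567 had 139, 146 and 157, and the next one 233, 231 and 240. The decline thus began before the annotated end and was partly regained beyond it. The 500 bases after this end had 158, 149 and 184 input reads and the 500 bases before it 253, 249 and 320, a ratio of 0.625, 0.598 and 0.575 whose highest 95% bound was 0.765, with 24 or 25 positions listed before and 20 to 22 after. At the shorter annotated end, 57803902, the corresponding ratio was 0.934, 1.02 and 0.963, and each interval included 1. At the end of ENSG00000288899 the input ratio was 0.142, 0.155 and 0.170, although IP reads continued at a ratio of 0.267, 0.221 and 0.291, and only part of the 25 positions past this end were listed. At the start of ENSG00000268205, IP reads increased by a ratio of 1.63, 1.78 and 1.78, and input reads by 1.14, 1.53 and 1.203, where the interval excluded 1 in UACC-62 replicate 1 alone.

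INCENP differed in that its input did not drop at the annotated end. The ratio of input reads after and before this end was 1.04, 1.13 and 1.66, with an interval above 1 in UACC-62 replicate 3, and IP reads increased by 2.89, 1.91 and 2.03. Per kb, input amounted to 145, 87.5 and 65.0 over the coding exons, 390, 277 and 197 over the 3′ UTR, 504, 371 and 371 in the gap and 252, 179 and 165 in ENSG00000289194. The gap was thus the region richest in input. At the start of ENSG00000289194 input fell to 0.545, 0.536 and 0.537 of the level before. The end of ENSG00000289194 did not have the same ratio in all samples, since it was 0.333 and 0.276 in UACC-62 but 0.904 in SK-Mel-103, with an interval of 0.703 to 1.16. Coding exons of INCENP were listed at 46.0%, 43.9% and 46.8% of 139 positions only, which lowers their input per kb.

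Within each lncRNA the IP reads were uneven and the pattern recurred between samples. The bins of ENSG00000268205 held from 4 to 330, 464 and 791 IP reads, with a median of 42.5, 66.5 and 88. The highest bin was the same in all samples, chr19:57819861-57819880, 69 bases from the annotated 3′ end, and this bin had 54, 53 and 61 input reads. For ENSG00000288899 the highest bin was also shared, chr19:57809601-57809620, with 284, 638 and 543 IP reads beside 19, 20 and 14 input reads. ENSG00000289194 had its highest bin at chr11:61921441-61921460 in SK-Mel-103 and UACC-62 replicate 1, with 558 and 425 IP reads, and 200 bases on in UACC-62 replicate 3, with 379.

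Bins with more than 30 IP reads in all samples numbered 110 of 212 positions in ENSG00000268205, 28 of 44 in ENSG00000288899 and 26 of 53 in ENSG00000289194. The gaps did not lag behind, with 130 of 172 positions before ENSG00000288899, 158 of 296 between both lncRNAs and 23 of 28 before ENSG00000289194. The 3′ UTRs had 77 of 92 for ZNF460 and 36 of 60 for INCENP, whereas the coding exons had 40 of 84 and 0 of 139. Windows of 500 bases were taken wherever they touched the stretch from the end of a coding gene to that of its last lncRNA. Past ZNF460 their log2 IP over input ranged from 2.13 to 4.60, from 2.71 to 5.46 and from 3.17 to 4.86. All 30 windows exceeded 2 in each sample, and the 3.17 came from the window across the end of ZNF460. Past INCENP, 3, 5 and 5 of 5 windows exceeded 2. The lowest values, 1.87, 2.80 and 3.07, came from the window at 61922234-61922733, which lay mostly past ENSG00000289194. The other SK-Mel-103 window below 2, with 1.97, lay mostly in the 3′ UTR of INCENP. Windows wholly inside the stretch had 2.91 to 4.13 in SK-Mel-103.

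To see how usual such a run of bins is, the coding genes among the 6713 were taken whose next gene on the same strand was an lncRNA at a distance of 100 to 20000 bases. There were 752 of them, and at least 80% of the gap was listed in all samples for 2 (0.266%), which were INCENP and ZNF460. The next were CDCA2 with 59.1% and MAPRE1 with 55.5% in their lowest sample. Other pairs also had a strongly enriched lncRNA and a partly listed gap. By the same measure, the gaps of PDZD8 to ENSG00000277879, ZNF573 to ENSG00000267152 and PPIL4 to ENSG00000289045 were listed at 14.7%, 24.6% and 40.3%. These lncRNAs ranked 2nd, 12th and 34th of the 6713 by their lowest log2 value. The gap between ENSG00000288899 and ENSG00000268205 was not such a pair and, at 76.0% in SK-Mel-103, lay below 80%. In 625 of the gaps at least 1 sample had no listed bin. Since both loci were chosen with the enrichment of these lncRNAs known, the ranking describes them and is not a test. Of the coding genes among the 6713, 5653 had no other gene of their strand in the first 500 bases past their end. Every position of these bases was listed in all samples for 1 of them (0.0177%), INCENP, while ZNF460 had 20, 21 and 22 of 25 positions listed. No bin was listed in any sample past 4385 of these ends.

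**Figure D4:**
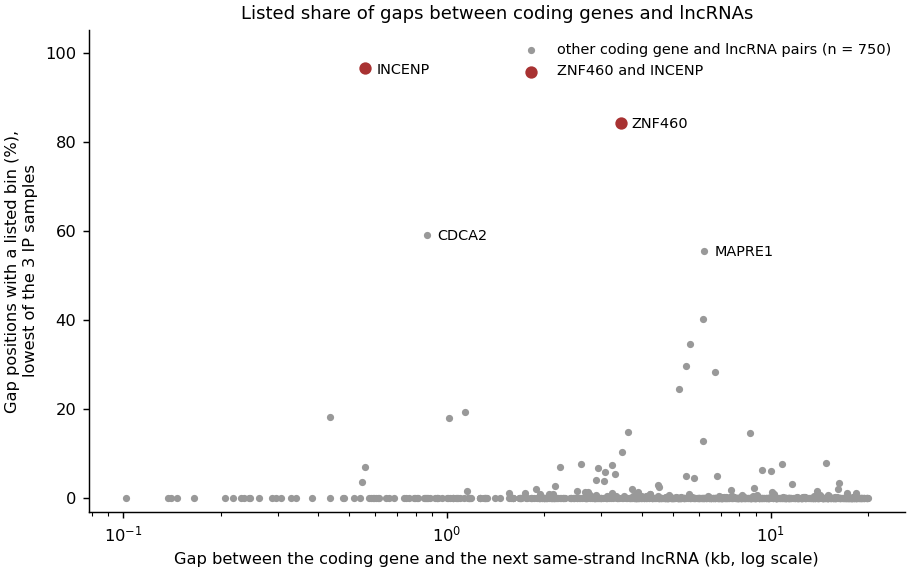
Share of grid positions with a listed bin (lowest of the 3 IP samples) against gap length on a log scale, for 752 protein-coding genes followed on the same strand by an lncRNA. ZNF460 and INCENP, at 84.3% and 96.4%, lie above the other 750 pairs, of which CDCA2 and MAPRE1 come next.

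The other measured genes of the chromosomal passenger complex were less enriched than INCENP, which had been taken for the enriched lncRNA beside it. BIRC5 (survivin), which binds the complex to chromatin, had a log2 IP over input of 0.89, 0.78 and 1.48, CDCA8 (borealin) 0.98, 0.08 and 0.91, and the kinase AURKB -0.08, -0.01 and 0.60. AURKC, a kinase of germ cells that lies in the same zinc finger cluster as ZNF460, had no listed bin. The 3 measured genes were thus lower than INCENP in every sample, but above the median of the 6713 genes. BIRC5 lay at percentile 83.8, 82.9 and 89.6 of these genes, CDCA8 at 85.3, 70.5 and 82.0, and AURKB at 56.0, 68.4 and 76.5. The paper counts BIRC5 and AURKB among the direct targets of CELF1. It does so by transcripts bound in RIP-Seq, which is a measure unlike the ratio over all exons given here. Bins with more than 30 IP reads numbered 50, 46 and 66 in BIRC5, 3, 3 and 3 in AURKB, and 2, 0 and 2 in CDCA8.

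Zinc finger genes on both sides of ZNF460 were read as well. ZNF805, the next coding gene upstream, had a log2 IP over input of 2.71, 3.57 and 3.25, and ZNF264 2.73, 3.46 and 3.47, both above ZNF460. ZNF543, downstream of ENSG00000268205, had only 224, 375 and 497 IP reads beside 82, 118 and 88 input reads, and log2 values of 1.06, 1.50 and 1.79. On chromosome 11, the nearest coding gene upstream of INCENP was FTH1, which encodes the ferritin heavy chain and lies on the opposite strand, with -1.84, -2.06 and -1.99, and SCGB1D1 had no listed bin.

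The genes closest to each lncRNA in log2 IP over input were sought among 6708 others by the Euclidean distance over the 3 samples. For ENSG00000268205 these were ZNF264 (0.19), GINS1 (0.30) and the lncRNA ENSG00000268713 (0.31), which overlaps the 3′ end of ZNF805 on the same strand, so that their bins cannot be assigned to one of the pair. For ENSG00000288899 they were JUND (0.24), PLCXD1 (0.39), a pseudoautosomal gene whose X and Y copies share reads, and FGF13 (0.43), and for ENSG00000289194 SLC22A5 (0.36), INTU (0.39) and NACC2 (0.40). With 3 samples, such distances describe likeness in level only.

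The lists hold single reads of 40 nt counted in bins, without splice junctions, paired ends or transcript ends. A transcript of ZNF460 or INCENP with a longer 3′ UTR and a separate unspliced RNA beginning within the stretch cannot be told apart by them, and neither can a mixture of both. Reads that align to several places were kept by the aligner, and their part in the gaps was not tested.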

How the data were processed

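CELF1 RIP-Seq of 2 melanoma cell lines was analyzed in 3 IP samples, each deposited as 1 list. The series has 6 samples, and the 3 inputs were available as a column of these lists. Samples were grouped by their titles.

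Per the labels, RNA was depleted of ribosomal RNA, although the same labels also call it poly A+. Reads of 40 nt were aligned by the authors to GRCh37 as a first-strand library with TopHat (2.0.4 with Bowtie 0.12.7 in the submitters' processing notes; the paper names other versions), and bins of 20 bases were called with Piranha 1.2.1 against the input at a threshold of 0.05. The deposited counts are unscaled IP reads in each bin, and the deposited p-value is that of the caller. The ratio in the last column, deposited by the authors, scales the input reads of the bin, and 0.01 stands for none. Replicates were not pooled.

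The smallest ratio was taken as 1 input read, and 100% of the other ratios were whole multiples of it within the rounding of the lists. The transcript strand was taken as the reverse of the listed one. Bins were assigned by their centre to exons of GENCODE version 44 mapped to GRCh37. Gene lists, regions and members were chosen with earlier results of these data known. Named genes were the members, the nearest coding neighbors, the other passenger complex genes and the 3 genes most like each lncRNA. CDCA2, MAPRE1 and the PDZD8, ZNF573 and PPIL4 pairs were named after their values were seen, as was the window past the last bins. UTRs include the stop codon. Enrichment was not tested, because the lists hold only bins that had passed. Intervals for shares are Wilson's, those for reads and ratios are exact, at 95%. Alternatives covered read filters (more than 30 or 100), a p-value under 0.01, a pseudocount of 0.5, totals, centring, strand and the omission of single UACC-62 replicates. Simulated bins with known ratios were used to test the code, which ran on Python 3.11.15 with scipy 1.17.1, numpy 2.4.6, pandas 2.3.3 and matplotlib 3.10.9.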

Additional observations from a re-analysis of the deposited data

How the results depend on the processing

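No paired analysis was possible because the results come from no test, and each IP sample was already set against its own input. None of the 91 alternative log2 values reversed its sign, which shares and counts of bins could not do. Because the lncRNAs had been chosen for high values, this is a description and not a test. Without the division by totals, log2 IP over input was 3.26 (SK-Mel-103) and 3.89 (UACC-62) for ENSG00000268205, 3.96 in SK-Mel-103 for ENSG00000288899, and 4.01 and 4.25 for ENSG00000289194. Centred on the median of all genes, the values were 3.13 and 4.01, 3.83 and 4.90, and 3.88 and 4.37 in the same order. With bins of more than 100 IP reads, ENSG00000268205 had 3.03 and ENSG00000289194 3.96 in SK-Mel-103. On the listed strand, ENSG00000268205 had a UACC-62 mean of 2.45 from at most 2 bins, and no bin was listed there for the other two lncRNAs or for ENSG00000268205 in SK-Mel-103. The gaps were then listed at 0%, with 1.16% and 0.169% in UACC-62 for those past ZNF460 and past ENSG00000288899.

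With more than 30 IP reads, 76.2% and 79.7% of the gap past ZNF460, 54.1% and 64.7% of the gap between the lncRNAs and 87.5% (UACC-62) of the gap past INCENP were covered, and at p under 0.01 the latter was 94.6%. Bins common to all samples were 173 (ENSG00000268205) and 47 (ENSG00000289194) without a read filter, and 30, 17 and 9 for ENSG00000268205, ENSG00000288899 and ENSG00000289194 above 100 reads. Leaving out 1 UACC-62 replicate gave 3.38 to 3.55, 3.97 to 4.72 and 3.55 to 4.10 for the log2 values of the same lncRNAs, 86.6% to 87.8%, 76.4% to 79.7% and 96.4% for the gaps, and 110 to 111, 28 and 26 to 29 common bins. Of 137 alternative values, 89 stayed within the spread between replicates, the counting interval or 1.5 times the count. The 89 include values that could not move. Log2 values and gap shares without 1 UACC-62 replicate lie within the SD of the replicates by construction. Gap shares from the end of the longest coding transcript are also included. The lncRNAs have no introns and the longest coding transcripts end at the farthest annotated ends, so that both these alternatives equal the reported values. Depth limits mainly the input, with a median of 2 to 5 input reads per bin of the lncRNAs.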
